A study of Mus musculus with 8 samples.

Results

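The cytosolic ribosomal protein genes, which encode the protein part of the large and small ribosomal subunits, were examined in early T-lineage progenitors. A knockout group was set against a control group. The knockout targeted Tcf7 and Lef1, which encode the transcription factors TCF1 and LEF1. Lef1 RNA was very low in both groups. Members were the gene symbols of the large (Rpl, Rplp) and small (Rps, Rpsa) subunit series, without pseudogenes, S6 kinases or mitochondrial ribosomal proteins, that had a mean of at least 1 TPM (transcripts per 1000000, a level scaled to transcript length) over the 4 RNA libraries. This gave 83 genes, 50 of the large and 33 of the small subunit, of 13228 genes tested and 24538 gene IDs listed. Of 85 matching symbols, Rpl39l (listed at 0 in every library) and Rpl10l (mean 0.307 TPM) fell below the limit, and Rpl3l (1.12 TPM) and Rpl32l (3.54 TPM) were just above it.

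In the knockout group, the donors of the cells were CreER+ mice with floxed Tcf7 and floxed Lef1 alleles. In the control group they were CreER+ mice with wild-type alleles. In both groups LSK cells, the marrow fraction that holds blood stem and multipotent progenitor cells (no lineage markers, Sca-1 and c-Kit present), were cultured with OP9-DL1 stroma, which displays the Notch ligand Delta-like 1, received 4-OH tamoxifen on days 3 to 5, and were sorted on day 7 as c-Kit-positive DN1 cells (lineage-, CD4- and CD8-negative, CD44-high, CD25-negative). Control cells thus carried CreER and met tamoxifen as well. The sources used here do not name the promoter behind CreER, the donors' age or whether replicates were separate animals or cultures, so p-values measure the spread between these libraries, which may be technical. Each group had 2 RNA-seq libraries and 2 libraries of ATAC-seq, which marks open chromatin by transposase insertion.

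Ribosomal proteins are made in near-equal numbers, assembled with ribosomal RNA in the nucleolus and, when in excess, degraded. Their mRNAs are among the most abundant of a growing cell, come from short genes, and in vertebrates usually begin with a C followed by a stretch of pyrimidines, the 5′ terminal oligopyrimidine (TOP) motif, through which mTORC1 and LARP1 control their translation. Several have relatives that differ by tissue, and free RPL5 and RPL11 bind MDM2, the ubiquitin ligase of p53.

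RefSeq promoters (GRCm38.p6) are shown for 4 loci whose RNA change was called in every fit run on them. Their promoter peaks are compared further on. The sequences run 5′ to 3′ in the sense of the transcript, from 250 bases before the annotated start onwards. Capitals mark a pyrimidine run at the start (C followed by 4 or more C or T), the ETS-factor core CCGGAAG, the YY1 core AAGATGG, or the TCF/LEF core on the other strand (TTCAAAG). The 4 loci are Rpl34 (chr3:130730349-130730648, minus strand), Rps3a1 (chr3:86142619-86142918, minus strand), Rps27 (chr3:90213599-90213898, minus strand) and Rps27l (chr9:66945836-66946135, plus strand).
Rpl34: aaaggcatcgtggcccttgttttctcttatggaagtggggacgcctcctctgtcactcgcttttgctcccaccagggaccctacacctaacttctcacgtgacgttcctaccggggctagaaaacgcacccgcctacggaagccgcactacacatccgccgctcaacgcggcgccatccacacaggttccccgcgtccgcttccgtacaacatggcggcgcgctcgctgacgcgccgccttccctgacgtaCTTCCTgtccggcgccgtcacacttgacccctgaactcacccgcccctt
Rps3a1: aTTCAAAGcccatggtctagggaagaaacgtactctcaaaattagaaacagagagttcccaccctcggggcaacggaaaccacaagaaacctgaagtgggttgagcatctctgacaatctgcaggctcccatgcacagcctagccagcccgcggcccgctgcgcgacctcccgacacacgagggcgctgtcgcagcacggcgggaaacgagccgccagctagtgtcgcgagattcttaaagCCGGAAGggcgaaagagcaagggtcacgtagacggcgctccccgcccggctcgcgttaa
Rps27: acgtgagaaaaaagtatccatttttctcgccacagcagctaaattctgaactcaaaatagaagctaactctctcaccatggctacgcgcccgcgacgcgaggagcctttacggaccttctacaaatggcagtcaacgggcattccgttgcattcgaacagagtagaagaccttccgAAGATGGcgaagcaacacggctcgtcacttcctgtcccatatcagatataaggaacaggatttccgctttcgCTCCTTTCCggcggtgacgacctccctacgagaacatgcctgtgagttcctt
Rps27l: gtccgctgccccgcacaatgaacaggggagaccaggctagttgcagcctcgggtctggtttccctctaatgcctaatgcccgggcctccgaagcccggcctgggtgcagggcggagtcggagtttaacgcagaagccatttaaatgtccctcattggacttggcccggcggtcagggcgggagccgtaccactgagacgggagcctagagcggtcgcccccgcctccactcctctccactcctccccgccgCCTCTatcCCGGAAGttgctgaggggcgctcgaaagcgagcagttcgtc

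For the TOP feature, the 10 bases before and the 20 from the annotated start are shown for 5 members with a pyrimidine run there (capitals). They are also shown for 3 that lack a run within 5 bases of that start. The start used in these cells was not measured, so the mRNAs of these 3 may still begin with a TOP motif.
Rps6: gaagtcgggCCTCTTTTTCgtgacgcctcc
Rps15a: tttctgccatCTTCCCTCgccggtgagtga
Rpl13a: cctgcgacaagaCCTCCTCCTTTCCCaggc
Rpl27a: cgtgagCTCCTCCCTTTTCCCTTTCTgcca
Rps9: cttgtCTCTCTTTgtctcgggcctgagttc
Rpl41: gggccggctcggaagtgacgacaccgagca
Rps19: cggtgagtgagggctctgggtcgcggctgt
Rplp0: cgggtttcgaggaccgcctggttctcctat

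Ribosomal protein mRNAs made up a large part of all libraries. The median member had a mean of 1619.5 TPM, against 18.8 TPM for all genes tested, and members took 61 of the 100 highest places. Of the 83 members, 63 averaged 1000 TPM or more and 74 averaged 200 TPM or more. By its own row the highest was Rps23, with 6240.2 and 6268 TPM in knockout and 6837 and 6800.3 TPM in control, a mean of 6536 TPM. With both rows of its locus summed, as described below, Rpl26 stood above Rps23 in every library. Rplp2 and Rplp1, with means of 4608 and 4569 TPM, were also among the highest and could not be ordered, as their library values interleaved.

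**Figure D1:**
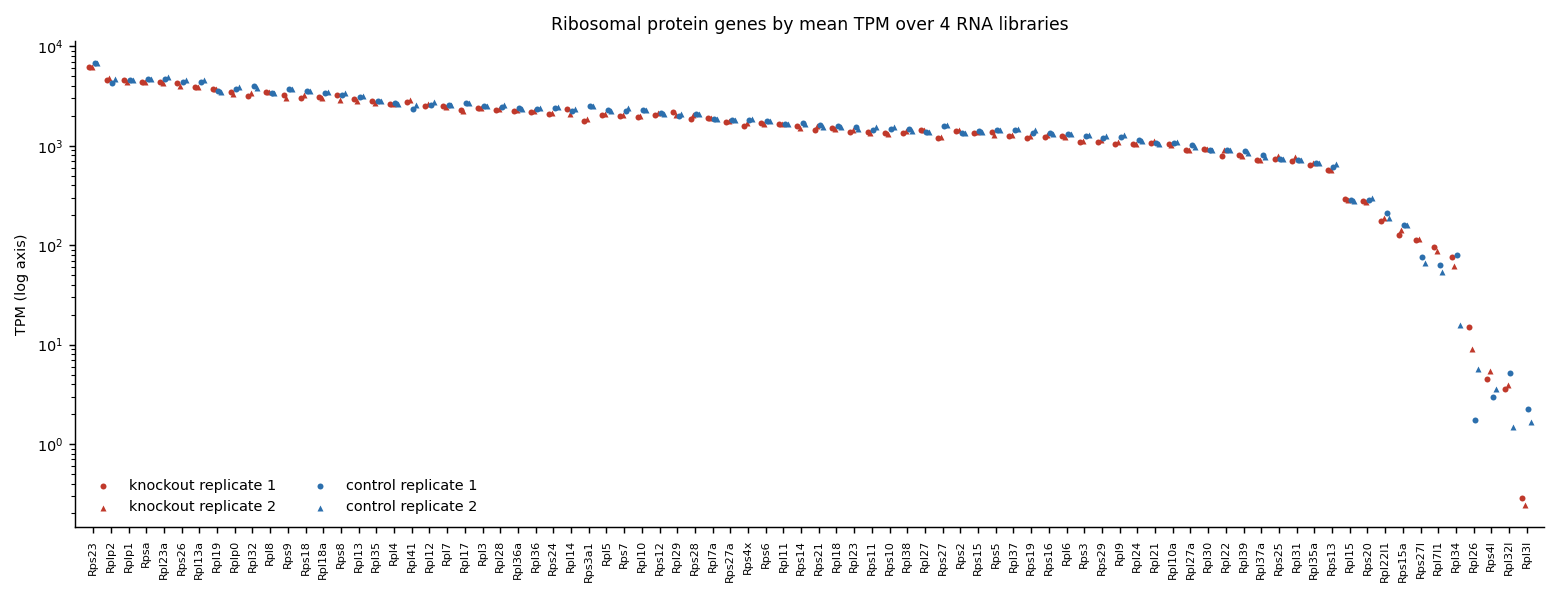
TPM of the ribosomal protein genes reported here (log axis) in the 2 knockout and 2 control RNA libraries, ordered by mean level. By their own rows, most members lie in a narrow band between about 1000 and 6536 TPM, and a tail of 9 members (right) lies below 200 TPM.

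The lowest members were Rpl3l, Rpl32l, Rps4l and Rpl26, with means of 1.12, 3.54, 4.13 and 7.89 TPM. Rpl26, a core protein of every large subunit, is out of place there. In the deposited tables a row named Gm15772 covers the Rpl26 locus (chromosome 11, 68901589 to 68904534, mm10, against 68901566 to 68904534 for the Rpl26 row) and held 7478 and 7390 TPM in knockout and 7888 and 7841 TPM in control. RefSeq places Gm15772, a pseudogene, on chromosome 5. The same holds for Rpl34, a core large-subunit protein, whose row had 76.6 and 62.1 TPM in knockout and 80.6 and 15.8 TPM in control. A row named Rpl34-ps1 lies on the Rpl34 locus (chromosome 3, 130726837 to 130730329, against 130726827 to 130730398), while RefSeq places Rpl34-ps1 on chromosome 6. Rpl30 and Rps27 each share a locus with a further low row (Gm12191 and Rps27rt, under 50 TPM in every library).

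Both rows of a locus were therefore also summed, a step chosen after the values were seen. The Rpl34 locus then had 1451 and 1480.5 TPM in knockout, against 2848 and 2958 TPM in control. Both knockout libraries were near 50.5% of the control mean, and the groups did not overlap (log2 change -0.99, SE 0.032, adjusted p = 0.000138 with limma over all genes). The call was made in all 10 fits of the locus sums, with log2 changes between -1.09 and -0.94. In the table as deposited this fall sits on the Rpl34-ps1 row (1374 and 1418 TPM in knockout, 2767 and 2942 TPM in control), and the Rpl34 row itself did not pass (log2 change 0.92, SE 0.70, adjusted p = 0.34).

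At Rpl26 the 2 readings go opposite ways. The row named Rpl26 had 15.2 and 9.02 TPM in knockout and 1.75 and 5.63 TPM in control, and was called higher (log2 change 1.58, adjusted p = 0.0437). The locus sum had 7493 and 7399 TPM in knockout and 7890 and 7847 TPM in control, 94.6% of the control mean and called lower (log2 change -0.08, adjusted p = 0.0483), a call made in 3 of 10 fits. The deposited Rpl26 row thus holds under 1% of the signal at its locus. The sums left the other shared loci close to their own rows: Rps27 at -0.40 (adjusted p = 0.000658) and Rpl30 at 0.03 (adjusted p = 0.48). The sources used here do not say how reads were divided between overlapping rows, or between these genes and their processed copies elsewhere, so every value of a multi-copy ribosomal protein gene carries this limit.

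**Figure D2:**
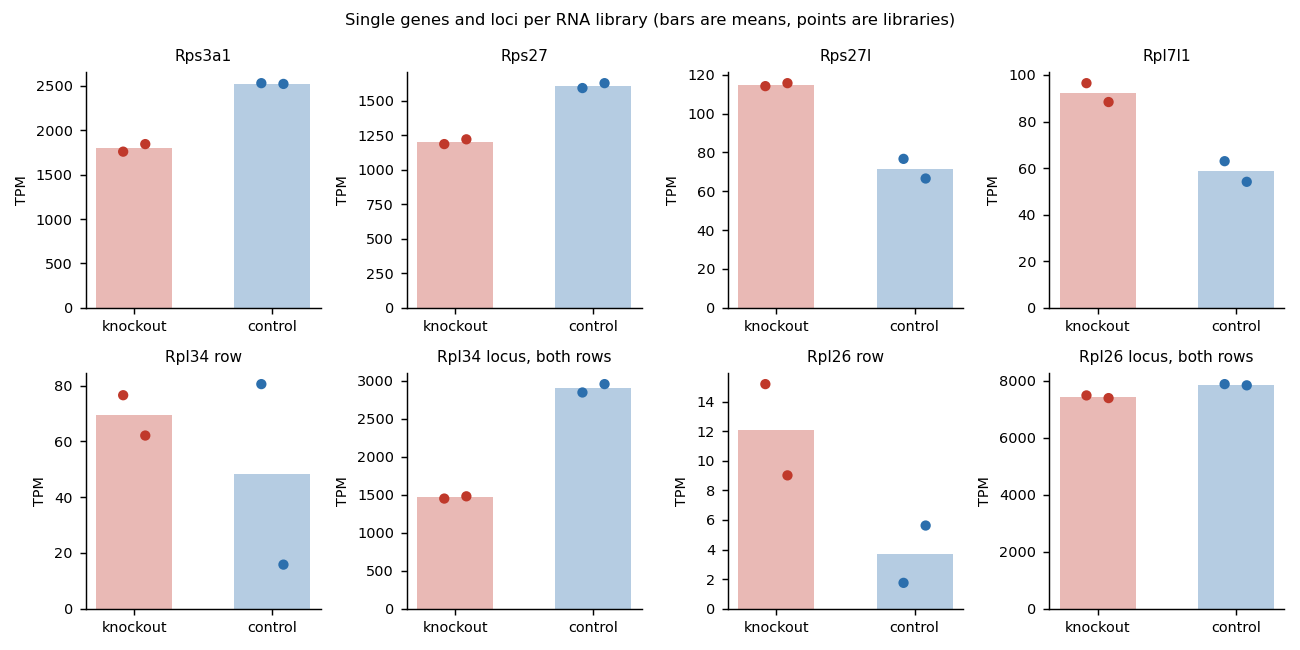
TPM of single genes and loci in knockout and control libraries (bars, means of 2; points, libraries; each axis starts at 0). Rps3a1, Rps27 and the Rpl34 locus lie lower in both knockout libraries, Rps27l and Rpl7l1 higher, and the Rpl26 row and locus sum differ in direction.

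Most members stood slightly lower in knockout. Of the 83, 32 fell and 6 rose, and 45 did not pass (limma on log2(TPM + 1), Benjamini-Hochberg adjusted over 13228 genes). Over all genes tested, 14.7% were called lower and 25.2% higher, so the members' 38.6% lower and 7.23% higher run the other way from the table as a whole. These counts take Rpl26 as a rise and Rpl34 as not passing, by their own rows. With both rows of each shared locus summed, 34 members fell and 5 rose, Rpl34 and Rpl26 then being among the falls. The median log2 change was -0.10 for the members and 0.09 for all genes tested, and 64 of the 83 changes were negative. Groups did not overlap for 53 members that were lower in knockout (background 29.0%) and for 13 that were higher (background 44.4%), and 17 overlapped. The size was small, with 75 of 83 changes under 0.3 in either direction. The median gap between genotype means was 0.11, larger than the median gaps of 0.05 between the knockout libraries and 0.03 between the control libraries. In the same order, the gaps were 0.327, 0.120 and 0.115 for all genes tested. For 340 other genes with a mean of 255 TPM or more they were 0.323, 0.042 and 0.035. A genotype gap above the replicate gaps was thus not particular to the members, whose genotype gap was smaller than in either background.

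**Figure D3:**
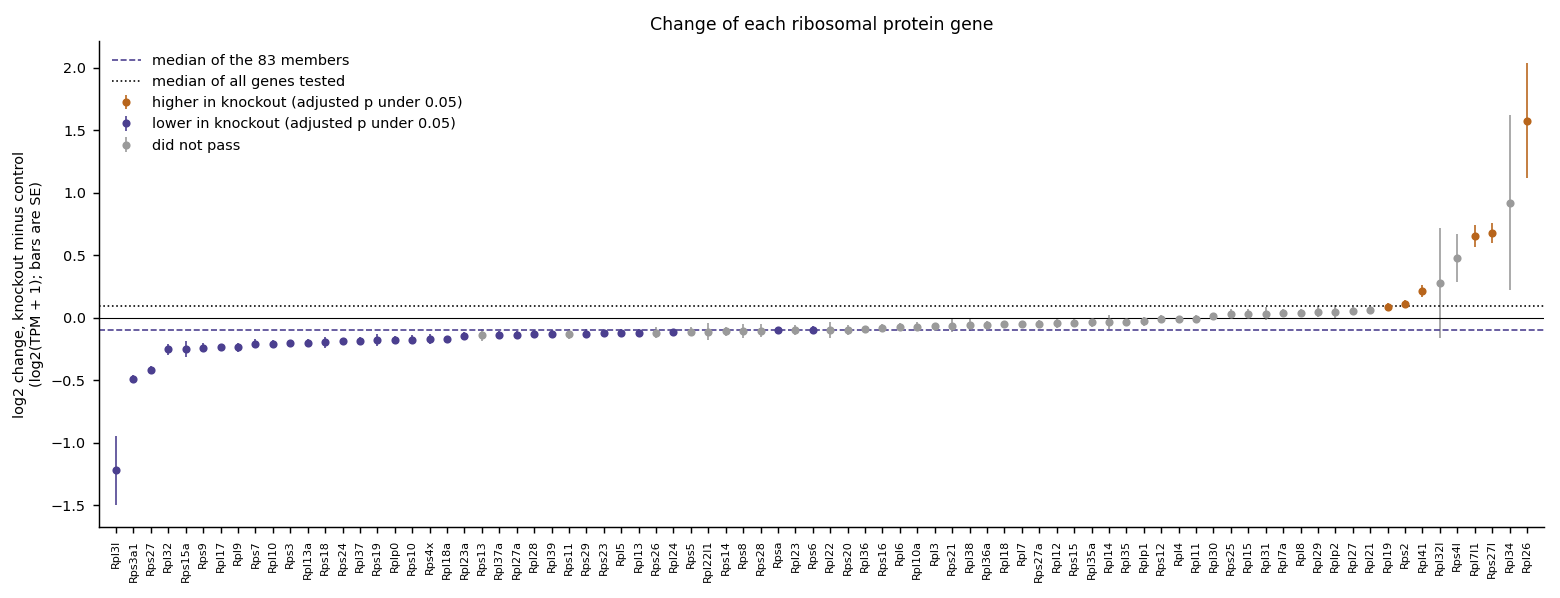
Log2 change of the members reported here, knockout minus control, on the log2(TPM + 1) scale, with its SE (bars), coloured by call. Most points lie between 0 and -0.3, below the dotted median of all genes tested, and Rpl3l, Rps3a1 and Rps27 lie lowest.

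How many members pass depends on the variance model and on scaling. Under eBayes with no intensity trend 3 of the 83 members were called lower (Rpl3l, Rps3a1, Rps27) and 2 higher (Rps27l, Rpl7l1). Of all genes, 12.3% were called lower and 20.1% higher in that fit. The members were thus called less often than all genes in both directions. Their larger share of lower calls did not hold there, while the median changes do not depend on the trend. With median-ratio scaling 58 were lower (background 19.0%) and 2 higher (background 18.5%), 96.7% of the member calls being lower against 84.2% as reported, and for all genes 50.6% of calls were lower, against 36.8%. Without control replicate 2 the members were called lower about as often as all genes tested. Their median log2 change was then -0.091, against 0.087 for all genes tested.

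**Figure D4:**
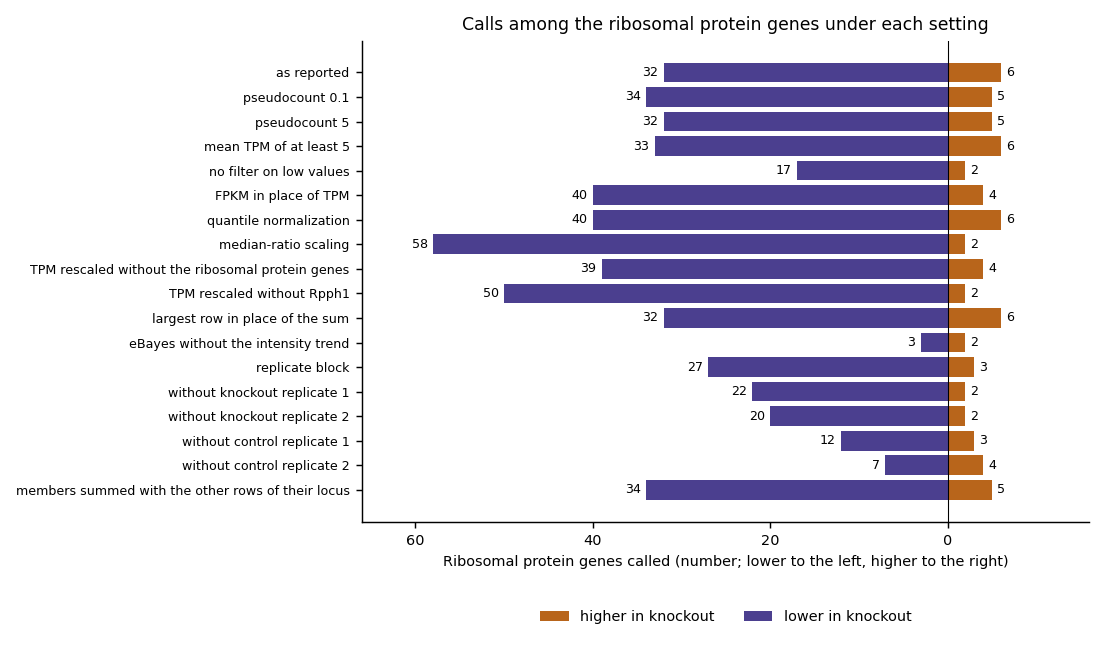
Number of ribosomal protein genes called lower (left) and higher (right) in knockout under each setting. Lower calls outnumber higher ones in every setting, between 58 with median-ratio scaling and 3 without the intensity trend.

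Summed over members, ribosomal protein transcripts took 15.4% and 15.5% of all TPM in knockout and 16.4% and 16.6% in control. The sums were 154378 ± 326 TPM in knockout and 164867 ± 1237 TPM in control (SD, n = 2 each), a ratio of 0.936. Both knockout libraries lay below both control libraries, and the exact two-sided permutation test gave p = 0.333, the smallest that 2 against 2 allows. With the other rows of each locus added, the shares were 16.3% in both knockout libraries and 17.5% and 17.7% in control. TPM is a share of a fixed total, and 1 non-coding RNA, Rpph1 (the RNA of RNase P), alone held 152245 and 157674 TPM in knockout and 193498 and 191800 TPM in control. As a percentage of all other genes except Rpph1, ribosomal protein transcripts stood at 22.2 and 22.5 in knockout and 25.5 and 25.8 in control. In bulk RNA, fewer cells of a type and less RNA per cell cannot be told apart.

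The small subunit stood lower than the large. Small-subunit sums were 61400.2 and 61933 TPM in knockout and 67208 and 67979 TPM in control, a log2 difference of -0.13. Large-subunit sums were 92747 and 92676 TPM in knockout and 96785 and 97762 TPM in control, a log2 difference of -0.07. The large over small ratio, which does not depend on library scaling, was 1.51 and 1.496 in knockout and 1.44 in both control libraries, without overlap (exact permutation p = 0.333, the smallest possible). With the locus rows added it was 1.65 and 1.64 in knockout and 1.60 in both control libraries, so the log2 difference of 0.06 became 0.04. Of 33 small-subunit genes 15 fell and 2 rose, and of 50 large-subunit genes 17 fell and 4 rose, with Rpl26 and Rpl34 taken by their own rows.

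**Figure D5:**
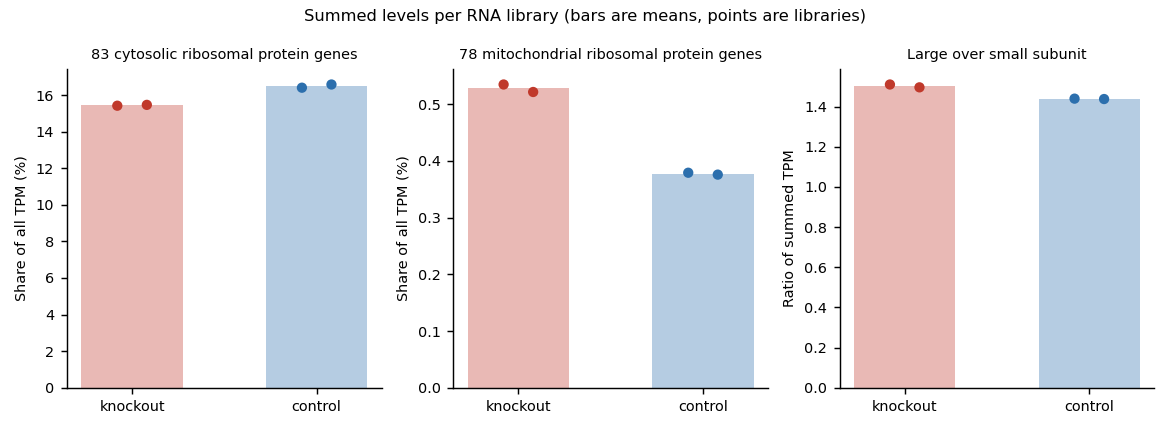
Share of all TPM held by the 83 cytosolic and the 78 mitochondrial ribosomal protein genes, and the ratio of summed large-subunit to small-subunit TPM, in knockout and control libraries (bars, means of 2; points, libraries). The cytosolic share is lower in knockout, the mitochondrial share and the subunit ratio are higher.

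Among the small-subunit genes, Rps3a1 and Rps27 had the largest falls. Rps3a1, a protein on the platform of the small subunit, had 1759.8 and 1845 TPM in knockout and 2532 and 2523 TPM in control (log2 change -0.49, SE 0.033, adjusted p = 0.000629). Rps27, a zinc-finger protein, had 1187 and 1221 TPM in knockout and 1593 and 1628 TPM in control (log2 change -0.42, SE 0.031, adjusted p = 0.000748). The knockout means were 71.3% and 74.8% of the control means, and the groups overlapped for neither gene. Rps15a had 128 and 142 TPM in knockout and 160.2 and 161 TPM in control, and Rps9 had 3234 and 3059 TPM in knockout and 3695 and 3737 TPM in control, log2 changes of -0.25 and -0.24. Rps19, the gene most often mutated in human Diamond-Blackfan anaemia, fell to 1195 and 1255 TPM in knockout, against 1334 and 1443.5 TPM in control (-0.18). Rps6, the substrate of S6 kinase, fell by 0.10 on the log2 scale (1689 and 1651 TPM in knockout, 1779 and 1794 TPM in control), as did Rpsa, known also as the laminin receptor precursor (4377 and 4439 TPM in knockout, 4739 and 4718.5 TPM in control). Rps3, chosen after its values were seen for keeping its call in all fits with the intensity trend, fell by 0.20. Against these, Rps2 had 1425 and 1459 TPM in knockout and 1333 and 1338 TPM in control (log2 change 0.11, adjusted p = 0.030), and that call was lost in 11 of the alternatives. With a library left out, Rps3a1, Rps27 and Rps3 kept their calls each time. The call of Rps9 was lost without control replicate 2 (adjusted p = 0.0547), that of Rps15a without knockout replicate 1 or either control replicate (up to 0.121), and that of Rps19 without either knockout replicate or control replicate 2 (up to 0.154). Those of Rps6, Rpsa and Rps2 were lost with any library left out (up to 0.188, 0.168 and 0.141).

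Rpl32 had 3174.5 and 3377 TPM in knockout and 3998 and 3802 TPM in control, a log2 change of -0.25 (adjusted p = 0.00793). Rpl17 and Rpl9, chosen after their values were seen for keeping their calls as Rps3 did, fell by 0.24 each. Rpl13a, a protein with known roles outside the ribosome in translational silencing, had 3873 and 3869 TPM in knockout and 4345 and 4555.5 TPM in control (-0.20). Rpl41, the shortest ribosomal protein, rose to 2791 and 2873 TPM in knockout, against 2335 and 2552 TPM in control (log2 change 0.21, adjusted p = 0.0194), and it did not pass with median-ratio scaling (0.11, adjusted p = 0.15) or without either knockout replicate or control replicate 1 (adjusted p up to 0.0849). Rpl19 rose by 0.09 (adjusted p = 0.0477) and stood at -0.015 with median-ratio scaling, and its call was lost with any library left out. The call of Rpl32 was lost without control replicate 1 (adjusted p = 0.0688) and that of Rpl13a without control replicate 2 (0.0612).

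Of the stalk proteins, Rplp0, the base of the stalk that recruits elongation factors, fell to 3449 and 3313 TPM in knockout, against 3753 and 3902 TPM in control (log2 change -0.18, adjusted p = 0.0122), a call lost without knockout replicate 2 or either control replicate (adjusted p up to 0.10). Its partner Rplp1 had 4638 and 4407 TPM in knockout and 4634 and 4599 TPM in control, and Rplp2 had 4559 and 4808.5 TPM in knockout and 4317 and 4746 TPM in control. Neither passed, and both pairs of groups overlapped, although with median-ratio scaling Rplp1 was called lower (adjusted p = 0.0221). Rpl5 fell to 2027 and 2112 TPM in knockout, against 2272 and 2233 TPM in control (-0.12, adjusted p = 0.031), a call lost without knockout replicate 1 or either control replicate (adjusted p up to 0.168). Rpl11 had 1641 and 1676 TPM in knockout and 1669 and 1664 TPM in control (-0.0072, adjusted p = 0.85). Whether Rpl5 and Rpl11, or Rplp0 and its partners, differ from each other was not tested.

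Relatives of core genes gave the clearest rises. Rps27l, the relative of Rps27 that p53 activates in human cells, rose to 114 and 116 TPM in knockout, against 76.7 and 66.5 TPM in control (log2 change 0.68, SE 0.078, adjusted p = 0.0024). As Rps27 itself fell, Rps27l RNA stood at 9.61% and 9.47% of Rps27 in knockout and at 4.81% and 4.09% in control. Rpl7l1, a relative of Rpl7, rose to 96.5 and 88.4 TPM in knockout, against 63.0 and 54.1 TPM in control (0.65, SE 0.091, adjusted p = 0.0043). It stood at 3.85% and 3.60% of Rpl7 in knockout and at 2.44% and 2.12% in control, with Rpl7 itself not passing (-0.05). Rps3a1, Rps27, Rps27l and Rpl7l1 were called in the same direction under every alternative run, the fit without the intensity trend included.

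Other relatives were lower or did not pass. Rpl3l, the striated-muscle relative of Rpl3, fell to 0.289 and 0.242 TPM in knockout, against 2.26 and 1.67 TPM in control (log2 change -1.22, adjusted p = 0.0206). At these levels it is under 0.1% of Rpl3, and its call was lost without either knockout replicate or control replicate 1 (adjusted p 0.0625 to 0.0809). Rpl22, whose loss in mice blocks alpha-beta T-cell development, had 791 and 904 TPM in knockout and 908 and 900.2 TPM in control. Rpl22l1, which can take its place, had 176 and 190.0 TPM in knockout and 209 and 187 TPM in control. Neither passed (both -0.10 to -0.11), and Rpl22l1 held 22.3% and 21.0% of the Rpl22 level in knockout and 23.0% and 20.8% in control. Rps4l had 4.55 and 5.39 TPM in knockout and 2.99 and 3.57 TPM in control and did not pass (adjusted p = 0.0995). Rpl36al had 577 and 589 TPM in knockout and 494 and 545.5 TPM in control (adjusted p = 0.0567). Rpl10l and Rpl39l, testis relatives of Rpl10 and Rpl39, were at or near 0 in every library.

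Genes that work with the ribosomal proteins were read from the same fit, in which 25.2% of all genes tested were called higher and 14.7% lower, and 6621 of 13228 had an unadjusted p under 0.05. Of ribosomal proteins that the symbol rule misses, Fau, which is made as a ubiquitin-like fusion to a small-subunit protein, fell to 1407 and 1427 TPM in knockout, against 1644 and 1683 TPM in control (-0.23). Rack1, a scaffold on the small subunit, fell by 0.15, a call lost with any library left out (adjusted p 0.0636 to 0.211). Of the others, Rpl36al and Rps27rt did not pass. Mitochondrial ribosomal proteins went the other way, with 60 of 78 higher, 0 lower and a median log2 change of 0.46. By limma without adjustment, 70 of the 78 had p under 0.05, and the count of rises was 35 without the intensity trend, where 20.1% of all genes tested were called higher. The largest rise was in Mrps6, with 142 and 121 TPM in knockout and 44.8 and 54.5 TPM in control. Their summed level was 5344 and 5212 TPM in knockout and 3789 and 3756 TPM in control.

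The list of 11 chaperones holds dedicated ribosomal protein chaperones and also Naca and Btf3, which serve nascent chains in general, and Nap1l1, a nucleosome assembly protein. Of these 11, 6 rose, Nap1l1 among them, and 0 fell, with 7 at an unadjusted limma p under 0.05 (median 0.40). Grwd1, the chaperone of RPL3, had 46.3 and 46.7 TPM in knockout and 26.6 and 25.5 TPM in control (log2 change 0.81, adjusted p = 0.00112). Of 32 initiation factors 22 rose and 2 fell (median 0.39), the largest rise being Eif2b3, a subunit of the eIF2B exchange factor (30.6 and 33.6 TPM in knockout, 14.7 and 16.3 TPM in control). The larger fall was Eif3f (284 and 273 TPM in knockout, 342 and 354 TPM in control). Elongation and termination factors split, 6 rising and 4 falling of 10. Eef1e1, a scaffold of the aminoacyl-tRNA synthetase complex, rose most (0.65), and Eef2k, the kinase that inhibits the translocase Eef2, fell most (-0.29). The call of Eef1e1 was lost without either control replicate (adjusted p = 0.0734 and 0.0546) and that of Eef2k without control replicate 2 (0.0508). Eif5a had 957 and 939 TPM in knockout and 612 and 627 TPM in control, whereas Eef2 had 1878 and 1876 TPM in knockout and 2231 and 2261.5 TPM in control. Of 22 further TOP mRNAs, some of which are also in those lists, 7 fell and 6 rose (median 0.04), and with median-ratio scaling 10 fell and 3 rose.

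In the list of mTORC1, S6 kinase and TOP regulators, 6 of 17 rose (35.3%, against 25.2% of all genes) and 1 fell (5.88%, against 14.7%). Larp4 rose most (63.7 and 65.5 TPM in knockout, 43.9 and 45.2 TPM in control). Larp1, the repressor that binds the TOP motif, had 156 and 149.7 TPM in knockout and 110.0 and 108 TPM in control, and Deptor, an inhibitor bound to mTOR, had 20.2 and 18.3 TPM in knockout and 48.6 and 47.5 TPM in control. Of 8 genes of the MDM2-p53 axis 5 rose (62.5%, against 25.2% of all genes) and 0 fell, with 6 at an unadjusted limma p under 0.05. Phlda3, a p53-induced inhibitor of AKT, had 17.6 and 13.9 TPM in knockout and 3.94 and 4.45 TPM in control. Ccng1, a p53 target, had 95.2 and 92.6 TPM in knockout and 45.9 and 43.8 TPM in control, and Trp53 rose by 0.24, a call lost in 9 of 17 alternatives (adjusted p 0.0548 to 0.394), among them leaving out knockout replicate 1 or either control replicate. Mdm2 had 57.9 and 53.1 TPM in knockout and 62.0 and 53.1 TPM in control and did not pass.

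The knockout and control libraries also differed in depth and in cell type markers, which the design does not separate from genotype. Tcf7, which encodes TCF1, had 13.2 and 12.4 TPM in knockout and 518 and 510 TPM in control, while Lef1 was under 2 TPM in every library, too low to serve as a check of its deletion. Relative depth, read from the ratio of coverage to FPKM, was 2.64 and 2.63 in knockout and 2.41 and 2.12 in control. The summed level of 12 stromal markers was 2037 and 1723 TPM in knockout and 819 and 844 TPM in control, with 10 of 12 called higher. Neutrophil granule markers summed to 3014 and 2941 TPM in knockout and 1361 TPM in both control libraries (4 of 4 higher), and mast cell and basophil markers to 386 and 391.7 TPM in knockout and 214 and 212 TPM in control (5 of 6 higher, 1 lower). Early T-lineage markers summed to 16.1 and 18.2 TPM in knockout and 353 and 358 TPM in control (7 of 7 lower). Markers of the sorted progenitors summed to 642 and 666 TPM in knockout and 698 and 713 TPM in control (2 of 5 higher, 2 lower), so the sum covers changes in both directions. B-lineage and erythroid markers summed to under 3 TPM in every library, with Pax5 and Hba-a1 under 0.5 TPM in all 4. These sums differ between the same libraries as every RNA result above, and their part in those results was not tested.

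Chromatin at the members' starts was open in both genotypes. A called ATAC peak overlapped the 500 bases on either side of the start for 79 of 83 members (95.2%) in each of the 4 lists, against 85.2% of all genes tested that had one in all 4. No member had a peak in both lists of one genotype and neither of the other. Of 13228 genes tested, only 113 had this pattern for knockout and 40 for control. The pattern was so rare that its absence among 83 members does not set them apart from other genes. Members without a promoter peak in any list were Rpl22, Rpl32l, Rpl3l and Rps4l. Rpl22 had a mean of 876 TPM, against 3.54, 1.12 and 4.13 TPM for the others. Whether its deposited start is the one used in these cells was not tested, so the lack of a peak there does not show a closed promoter. The authors' fold enrichment of the members' peaks had medians of 15.96 and 16.2 in knockout and 15.7 and 15.95 in control, and their median percentile within each list was 85.8 and 86.2 in knockout and 83.7 and 84.8 in control. Peak summits lay close upstream, at medians of -46 and -48 bases in knockout and -53 and -52 bases in control.

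Peaks at the loci called in every fit were read one list at a time. At Rpl34, whose locus RNA was near 50.5% of control, the fold enrichment was 23.7 and 24.2 in knockout and 23.7 and 21.8 in control, with the summit 41 bases upstream in all 4 lists. Within its own list that peak stood at percentile 98.8 and 99.0 in knockout and 98.6 and 96.9 in control. At Rps3a1 it was 19.8 and 20.4 in knockout and 20.1 and 18.9 in control, and at Rps27 20.1 and 19.6 in knockout and 21.0 and 21.2 in control. At Rps27l it was 19.2 and 18.1 in knockout and 18.6 and 17.7 in control. Rpl7l1 had weaker peaks, with a fold enrichment of 10.02 and 11.8 in knockout and 11.5 and 9.46 in control, at percentile 60.2 and 69.6 in knockout and 66.7 and 55.9 in control. Rpl3l, which fell most by log2 change, had no promoter peak in any list. These values were not tested between genotypes, since ATAC depth is unknown from peak lists.

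The printed promoters can be read against all promoters of the same length. RefSeq promoters could be matched for 62 of 83 members and for 9637 of all genes tested. A TCF/LEF core (CTTTGAT or CTTTGAA, both strands) was found in 1 member promoter (1.61%, Rps3a1, 249 bases before the start on the other strand), against 6.03% of all. CCGGAAG (both strands) was in 24 (38.7%) against 18.9%, and AAGATGG (both strands) in 10 (16.1%) against 7.42%. TATAAA (strand with the sense of the transcript) was in 7 (11.3%) against 4.27%, and GGGCGG (both strands) in 37 (59.7%) against 64.7%. CCGGAAG and AAGATGG can share the letters AAG, and a match is a description of letters, not a site.

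A pyrimidine run within 5 bases of the annotated start was found in 29 member promoters (46.8%), against 20.4% of all, and a C stood at the start itself in 22 (35.5%), against 15.1%. Of the 29 members with the run 12 fell and 3 rose (median log2 change -0.06), and of the 33 without it 15 fell and 3 rose (median -0.10), a difference that was not tested. The run of Rpl13a began 2 bases after its annotated start. The TATAAA of Rplp0 lay 17 bases after its annotated start, and the annotated start of Rps19 was 38 bases from the deposited one. Starts in use were not measured, so the split by run describes annotated starts and not which mRNAs carry a TOP motif.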

How the data were processed

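The submitters' processing notes name HISAT2 and StringTie for RNA and Bowtie2 and MACS2 for ATAC, on mm10, without versions. Per the file headers, the deposited RNA tables hold TPM, which sums to 1000000 in each library, FPKM, used as an alternative, and coverage, used for relative depth only. Read counts were not used, so counting error is unknown. Use of strand is not stated. Peaks were called in each library separately, and the deposited lists give a fold enrichment (a ratio over background) and a −log10 q for each peak, both used within a list only.

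The genotypes were set against each other on log2(TPM + 1) by limma 3.58.1 in R 4.3.3 (lmFit, then eBayes using the intensity trend). The fit covered 13228 genes whose mean reached 1 TPM and had no term besides genotype. A call needed an adjusted p (Benjamini-Hochberg) under 0.05. The log2 changes understate those of low genes. TPM was summed over rows of a gene ID, and no member had several. Rows on a member's strand with 90% reciprocal overlap were added as an alternative. On simulated data, 99 of 100 genes above 255 TPM raised by 0.25 and 100 of 100 lowered by 0.5 on the log2 scale were recovered, and 14 of 13028 unchanged genes were called. The simulated noise was normal with a spread set by expression level, as the fit with the trend assumes. It therefore cannot decide between variance models. Changes smaller than 0.25 were not simulated, while the smallest called fall among members was -0.097.

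Members, lists and tests were chosen with earlier results of these data known, so lists are described by counts and medians with no set test. Genes named were Tcf7 and Lef1, the 6 largest rises and falls among called members, the 4 highest and 4 lowest members, the paralog pairs, the stalk, MDM2-binding and S6 kinase target genes, Rpsa, Rps19 and Rpl13a, and the largest called change of each related list. A few genes of the rule and the lists count in the totals and are not reported here by name. Others are marked where they stand, or were taken from the lists for their role after their values were seen. Alternatives covered pseudocount, filter, unit, scaling, variance model, replicate block, left-out libraries, peak window and peak threshold.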

Additional observations from a re-analysis of the deposited data

How the results depend on the processing

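The members stood lower in knockout under every alternative run, and the count of calls did not hold. The median log2 change was -0.12 with FPKM in place of TPM, -0.095 with quantile normalization, -0.20 with median-ratio scaling, -0.12 with TPM rescaled without the ribosomal protein genes and -0.16 with TPM rescaled without Rpph1. Minus the median of all genes tested it ran from -0.21 to -0.10. Lower calls numbered 17 and higher calls 2 with no filter on low values, 58 and 2 with median-ratio scaling, 50 and 2 without Rpph1, and 3 and 2 without the intensity trend. With 1 library left out, where the lone sample of a group is assumed to vary like the others, lower calls ranged from 7 to 22, higher calls from 2 to 4, the median from -0.094 to -0.078, and the log2 difference of the sums from -0.10 to -0.087. Without control replicate 2 the members were called lower about as often as all genes tested, so their excess of lower calls was lost. The median log2 change of the members stayed below that of all genes tested with each library left out. It was -0.078 against 0.084 without knockout replicate 1, and -0.083 against 0.105 without knockout replicate 2. Without control replicate 1 it was -0.094 against 0.096, and without control replicate 2 it was -0.091 against 0.087. The large over small subunit difference (log2) stayed between 0.056 and 0.070 with a library left out and was 0.043 with the other rows of each locus added. Calls in the related lists, 108 higher and 10 lower as reported, became 16 lower with quantile normalization and with median-ratio scaling, and 71 higher and 3 lower without the intensity trend. They ranged from 69 to 78 higher and 6 to 9 lower with a library left out. Promoter peaks in all 4 lists ranged from 77 to 79 members. Named genes changed sign without passing the test at Rpl3 (0.022), Rpl36a (0.028), Rpl36al (-0.017) and the Rpl30 locus (-0.092) with quantile normalization, at Rpl19 (-0.015), Rplp2 (-0.054) and the Rpl30 locus (-0.073) with median-ratio scaling, at Rplp2 (-0.017) and the Rpl30 locus (-0.036) without Rpph1, and with a library left out, where Rpl11 ranged from -0.023 to 0.0083, Rplp1 from -0.067 to 0.0066, Rplp2 from -0.020 to 0.12, Lef1 from -0.081 to 0.26 and Rpl32l from -0.38 to 0.93. Rpl26 changed sign with the rows of its locus added (-0.080), where its own row is a small part of the sum. The cause of the other changes was not tested. Replicate numbers pair the libraries in name only: deviations from the group means correlated at 0.004 between genotypes across genes, and with the replicate number as a block 27 members were lower and 3 higher. Relative sequencing depth was lowest in control replicate 2, and without read counts the precision of low members such as Rpl3l, Rpl32l and Rps4l is unknown.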

Other observations

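Of the 83 members, 4 lie on chromosome 3, which also carries the floxed Lef1 gene (131110297 to 131224357, mm10). Rpl34 is 379.9 kb from Lef1, Rps27 40.9 Mb, Rps3a1 45.0 Mb and Rpl22l1 102.3 Mb. The 4 had a median log2 change of -0.27 (2 lower, 0 higher, with Rpl34 taken by its own row) or -0.44 (3 lower, 0 higher, by locus sums), against 0.07 for all 637 genes tested on that chromosome, of which 13.2% were lower and 26.5% higher. Chromosome 11 carries the floxed Tcf7 gene, and the nearest member there is Rpl26, 16.6 Mb away. Its 7 members had a median of -0.05, with 1 lower and 2 higher, Rpl26 being taken by its own row. Of the 1119 genes tested on that chromosome, 17.8% were lower and 25.6% higher, with a median of 0.07. The 72 members outside chromosomes 3 and 11 had a median of -0.10, with 29 lower and 4 higher. Of all genes tested there, 14.4% were lower and 25.1% higher.

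Within 1 Mb of Lef1, 6 rows were tested. Ostc, a subunit of the oligosaccharyltransferase that lies next to Rpl34, rose to 199.8 and 176 TPM in knockout, against 102 and 116 TPM in control (limma log2 change 0.78, adjusted p = 0.00247), opposite to the Rpl34 locus. Hadh, a mitochondrial fatty acid oxidation enzyme, rose by 0.27 (62.1 and 64.9 TPM in knockout, 53.5 and 51.7 TPM in control). Sgms2 (adjusted p = 0.0884) and Papss1 (adjusted p = 0.0527) did not pass. Of the 4 other genes measured around Lef1, 2 thus rose and none fell.

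The 7 rows named as ribosomal protein pseudogenes summed to 1400.0 and 1435 TPM in knockout and 2811 and 2977 TPM in control, nearly all of it on the Rpl34-ps1 row that lies on the Rpl34 locus. Among the rest, Rplp2-ps1 had 7.43 and 1.33 TPM in knockout and 23.3 and 18.5 TPM in control, and Rpl31-ps12 had 1.499 and 0.702 TPM in knockout and 5.82 and 4.27 TPM in control, both called lower, while their parents Rplp2 and Rpl31 did not pass. Whether these reads come from the pseudogenes or from their parents was not tested.

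The balance of calls was also read in other highly expressed genes. Of 340 other genes with a mean of 255 TPM or more, 188 were higher (55.3%) and 73 lower (21.5%) in knockout, with a median log2 change of 0.18.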
